A study of Caenorhabditis elegans with 11 samples.

Results

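Loss of the nuclear Argonaute HRDE-1 was examined in Caenorhabditis elegans that keep the histone methyltransferases MET-2 and SET-25, by chromatin immunoprecipitation and sequencing of RNA polymerase II (Pol II). The comparison uses 4 of the 8 Pol II libraries, and 4 of the 11 samples, of a study on silencing by nuclear RNA interference. The hrde-1 mutants were hrde-1(tm1200) and set-32(red11); hrde-1(tm1200), and their controls were the wild-type strain N2 and set-32(red11). Each hrde-1 mutant was thus paired with a control of the same set-32 status, and both pairs carry intact met-2 and set-25. All animals were young adult hermaphrodites fed on E. coli OP50. The members are the 1 kb genome bins that averaged 2 RPKM or more over these 4 libraries, 84160 of the 100257 bins in the table. RPKM scales reads by bin length and by the library's total, and as all bins are 1 kb the values work as shares of a library.

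HRDE-1 is a germline Argonaute that carries small interfering RNAs into the nucleus, where it directs transcriptional repression and histone H3 lysine 9 methylation at matching loci, many of them transposable elements. MET-2 and SET-25 place methyl groups on that lysine. SET-32 is another SET-domain protein, required in the germline for silencing by nuclear RNA interference to be set up. The title of the series concerns that role of SET-32.

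Each genotype had 1 library, of an unstated number of cultures, so errors below measure only how the 2 pairs differ, with the spread moderated over all bins. Whole animals were used, so a change in the share of nuclei with Pol II at a locus and a change in the amount per nucleus cannot be told apart. The genome build was not stated in the sources used, so loci are named by position in the deposited table without gene names, and the deletion in hrde-1 was not checked. The controls held about 3.70 M (N2) and 3.03 M (set-32) reads and the mutants 5.72 M (hrde-1) and 6.06 M (set-32 hrde-1), estimated from the smallest steps between values. At 10 RPKM a bin thus holds 30.3 to 60.6 reads, with 12.9 to 18.2% counting error. Both hrde-1 mutants were sequenced more deeply than both controls. The set-32 library stood apart, with 520 bins at 0 against 9 to 13 in the others, and a ratio of 24.96 between the 90th and 10th percentiles of its bins against 12.01 to 14.5. N2 has the name prefix SG0615 and the other 3 libraries SG0117. The pair of set-32 hrde-1 and set-32 lies within 1 prefix, so its values are the within-prefix values. The sources used do not say what the prefix stands for.

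Pol II was higher at discrete loci on all 6 chromosomes of hrde-1 mutants, and few bins were lower. Of the 84160 bins, 745 were higher (0.885%) and 21 were lower (0.025%) (limma with set-32 status as a term, Benjamini-Hochberg adjusted, threshold 0.05), and 4910 had an unadjusted p under 0.05. Without the intensity trend in limma's moderation the counts were 210 higher and 0 lower. Over the 745 higher bins the median was 6.06 RPKM in N2 and 4.94 in set-32, against 22.3 in hrde-1 and 28.4 in set-32 hrde-1. These bins moved from the middle of the genome's Pol II range to its upper part: their median lay at percentile 58.6 of all bins in N2 and 56.9 in set-32, and at percentile 89.2 in hrde-1 and 92.7 in set-32 hrde-1. In each of the 745 bins both hrde-1 mutants exceeded both controls, an order that 15.5% of all tested bins showed. The bins were called on these same values, so this order is largely built into the call and is a description only. The median log2 change was 1.80 over the higher bins and -0.01 over all tested bins. The scale is log2(RPKM + 1), on which changes at low bins come out too small. Of the higher bins, 744 were at least 2-fold higher, 289 at least 4-fold, 114 at least 8-fold and 27 at least 16-fold, and the largest log2 change was 5.34.

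The higher bins make up 0.743% of the bins in the table, and they took a larger share of the reads in the mutants. They held 0.569% of the Pol II signal in N2 and 2.33% in hrde-1, a ratio of 4.10. In the other pair the control held 0.565% and the hrde-1 mutant 3.19%, a ratio of 5.64. Because the same values chose the bins, these shares are a description. Fits with 1 library left out also lack the set-32 term, since 3 libraries leave no residual degree of freedom for it, so each changes the library and the term together. The arm that keeps 2 libraries then spans both set-32 states. With the set-32 library left out in this way, 1285 bins were higher and 1015 lower, and 55.9% of calls were upward against 97.3% with all 4 libraries. That fit rests on a single control, N2. Without set-32 hrde-1, 476 bins were higher and 86 lower, and 84.7% of calls were upward. Without the set-32 term but with all 4 libraries, 519 were higher and 1 lower. A fit over all 8 Pol II libraries had a term for the name prefix, set as SG0117 against any other. In it 673 bins were higher, 590 of them among the 745, and 9 were lower, 3 of them among the 21.

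The 2 pairs share no library, so each can be read in the other. A bin was counted, with no test, where its log2 difference reached 1 and the upper library of the pair reached 10 RPKM. By this count hrde-1 exceeded N2 in 875 bins (1.04% of those tested). In the same way set-32 hrde-1 exceeded set-32 in 994 bins (1.18%). The lists had 528 bins in common, which is 60.3% of the first and 53.1% of the second, and 526 of the 528 were among the 745. Bins picked in the pair with intact set-32 had a median log2 difference of 1.48 in the other pair, where the median of all bins was 0.02. Bins picked in the pair lacking set-32 had a median of 1.17 in the first pair, where all bins stood at -0.04. The lower lists shared few bins. In hrde-1, 913 bins were lower than in N2 by the same rule (1.08%), and in set-32 hrde-1, 178 were lower than in set-32 (0.212%), with 4 bins in common. Bins low in one pair had a median difference of 0.09 or 0.01 in the other, close to that of all bins.

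**Figure D1:**
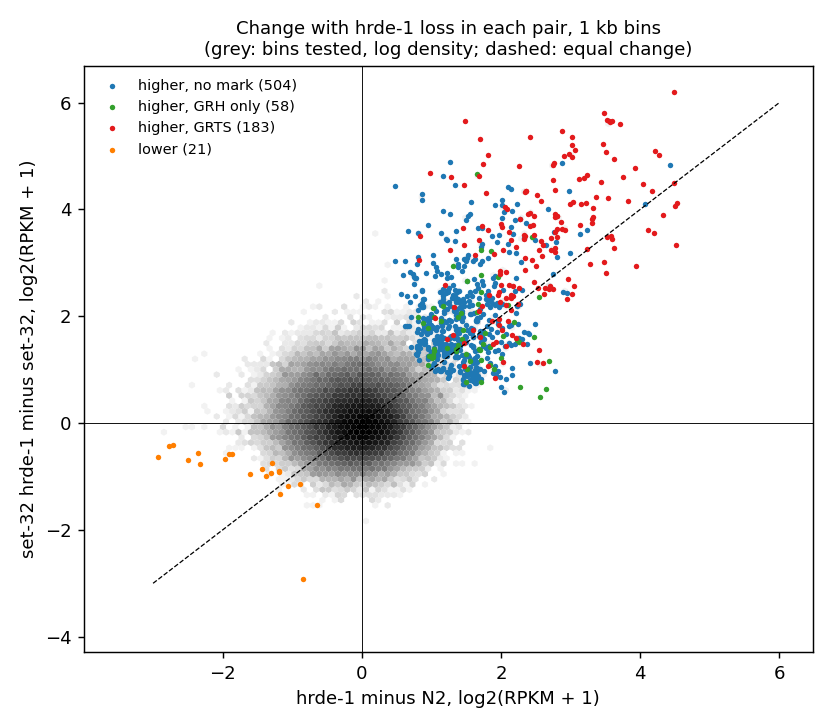
Log2(RPKM + 1) difference of hrde-1 minus N2 (x axis) against set-32 hrde-1 minus set-32 (y axis) for 1 kb bins. Grey shading is the density of the tested bins, coloured points are the 745 higher and 21 lower bins, and the dashed line marks equal change. Higher bins lie in the upper right, and 531 of them are above the line.

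The strongest loci were stretches of several kilobases at which both controls were low and both mutants high. Neighbouring bins past the threshold, with at most 1 bin between them, were joined into 212 higher and 18 lower regions. Region values are means over those bins, the SE given is averaged in the same way, and a region's p is the lowest adjusted p found in it. The region with the largest change was chromosome IV, 4123001 to 4138000, with 6.37 RPKM in N2 and 7.64 in set-32, against 82.6 in hrde-1 and 120.9 in set-32 hrde-1. Its log2 change was 3.44 ± 0.26 (SE; limma adjusted p = 6.71e-09), and the mutants did not overlap the controls. Chromosome V, 17568001 to 17575000, read 3.33 RPKM in N2 and 2.52 in set-32, against 43.7 in hrde-1 and 44.4 in set-32 hrde-1. Here the 2 mutants were nearly equal, at a log2 change of 3.42 ± 0.25 (SE; limma adjusted p = 6.71e-09). Chromosome II, 2148001 to 2165000, read 5.29 RPKM in N2 and 3.79 in set-32, against 46.7 in hrde-1 and 73.8 in set-32 hrde-1. All 17 of its bins were past the threshold, with a log2 change of 3.40 ± 0.27 (SE; limma adjusted p = 6.71e-09).

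Further loci also rose, most of them from a low starting level. Chromosome II, 13244001 to 13251000, read 5.01 RPKM in N2 and 2.27 in set-32, against 52.9 in hrde-1 and 53.4 in set-32 hrde-1. Chromosome IV, 524001 to 529000, read 2.87 RPKM in N2 and 2.26 in set-32, against 39.2 in hrde-1 and 42.4 in set-32 hrde-1. Their log2 changes were 3.22 ± 0.28 and 3.15 ± 0.33 (SE), and in both the mutants lay far above the controls. Chromosome IV, 14414001 to 14417000, read 2.52 RPKM in N2 and 1.98 in set-32, against 39.8 in hrde-1 and 23.4 in set-32 hrde-1, so that the hrde-1 library was the higher mutant there. On chromosome I, 4456001 to 4463000 began at a higher level, with 12.1 RPKM in N2 and 15.6 in set-32, against 136.4 in hrde-1 and 116.7 in set-32 hrde-1. Chromosome IV, 4185001 to 4188000, had the highest control values of the 12 regions with the largest change, at 18.4 RPKM in N2 and 21.7 in set-32, against 100.6 in hrde-1 and 103.6 in set-32 hrde-1. The log2 changes of these last 3 regions were 2.84, 2.97 and 2.75.

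**Figure D2:**
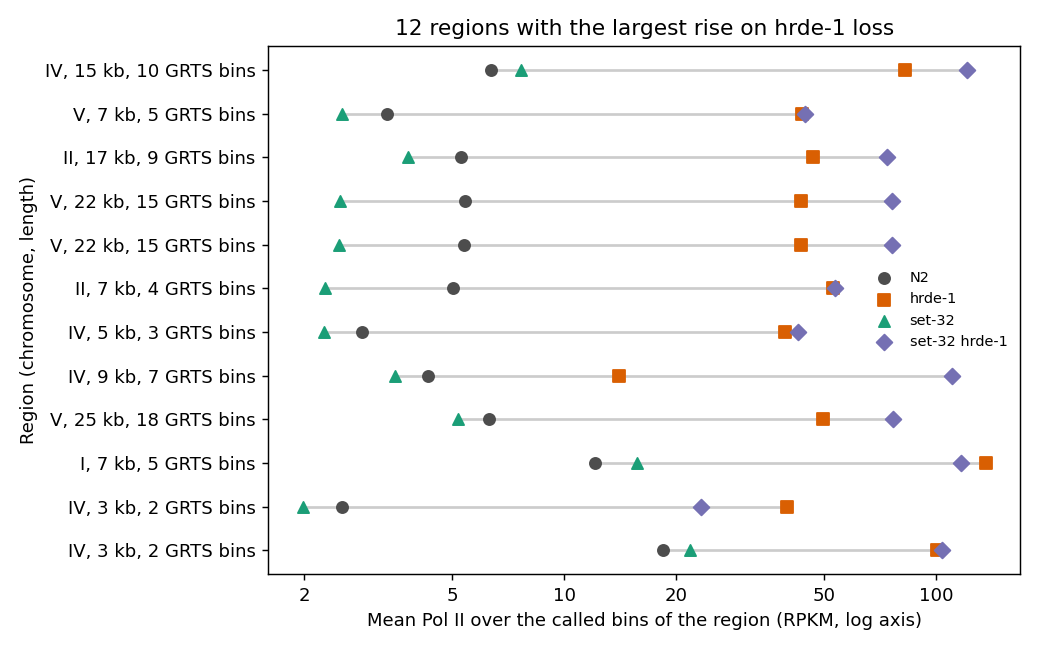
Mean Pol II (RPKM, log axis) in each of the 4 libraries over the 12 regions of at least 3 called bins with the largest log2 change, 1 region per line. Each point is 1 library. In every region the hrde-1 and set-32 hrde-1 points lie to the right of N2 and set-32, and the 9 kb region of chromosome IV shows the widest distance between the 2 mutants, 14.1 and 110.1 RPKM.

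The longest region, chromosome V, 5180001 to 5205000 (25 kb), read 6.27 RPKM in N2 and 5.17 in set-32, against 49.7 in hrde-1 and 76.5 in set-32 hrde-1 (log2 change 3.08 ± 0.30 SE; limma adjusted p = 1.34e-08). All 25 of its bins were higher and 18 carry the GRTS mark described below. Another long region of chromosome V, 5470001 to 5494000, changed less, from 8.44 RPKM in N2 and 5.55 in set-32 to 30.7 in hrde-1 and 35.1 in set-32 hrde-1. A pair of 22 kb regions, 8825001 to 8847000 and 8867001 to 8889000 of chromosome V, gave almost the same values as each other in every library: 5.42 and 5.38 RPKM in N2 and 2.5 and 2.47 in set-32, against 43.3 and 43.2 in hrde-1 and 75.95 and 75.85 in set-32 hrde-1. Only 21.3 and 30.7% of their values up to 60 RPKM fell on whole numbers of reads, against 81.3% over all tested bins, so their separate changes are uncertain. Regions of at least 10 kb numbered 16 and held 257 of the 745 higher bins, while 78 regions were a single bin.

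Fractions of a read were frequent at the higher loci in general. Of values up to 60 RPKM, 51.0% lay within 0.1 of a whole read in the higher bins. The sources used do not give the authors' treatment of reads that match several places. Where every value was whole, 248 of 60690 bins were higher (0.409%), with a median log2 change of 1.89. Among bins with a fractional value, 497 of 23470 were higher (2.12%), with a median of 1.76. Higher bins thus occurred among bins of both kinds. In 23 higher bins all 8 Pol II libraries read within 5% of another higher bin more than 10 kb away, and 0 of these 23 had whole-read values throughout. This rule is strict and does not count every bin that reads much like another. The 22 kb pair alone has 22 called bins in each of its regions, more than the rule counted.

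The deposited table marks some bins as GRTS or GRH, names used in this field for targets of germline nuclear RNA interference that are silenced in transcription (GRTS) or carry its heterochromatin (GRH). The sources used do not say how the authors set them. Libraries like these may have been used, so the counts give no independent evidence of a direction. Of the 191 GRTS bins, 183 were higher (95.8%) and 0 lower, against 0.885% higher over all tested bins. The median over GRTS bins was 5.6 RPKM in N2 and 3.95 in set-32, against 34.0 in hrde-1 and 58.9 in set-32 hrde-1. The mutants lay above the controls by 3.0 on the log2 scale, with a spread within the arms of 0.44 (SD, n = 2 libraries per arm). A comparison of 2 with 2 libraries has 6 assignments and an exact two-sided permutation p no smaller than 0.3333, so no test of these medians is given.

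The GRTS bins that missed the threshold were 8, and they were chosen for mention after their values were seen. Chromosome V, 16102001 to 16103000, was the only one with a negative estimate (log2 change -0.08), since hrde-1 exceeded N2, at 32 against 13.8 RPKM, but set-32 hrde-1 read 8.75 RPKM against 23.4 in set-32. Chromosome I, 11441001 to 11442000, was higher in hrde-1 than in N2, at 17.9 against 5.81 RPKM, while set-32 hrde-1 read 9.65 RPKM against 10.98 in set-32. The other pair carried the difference at chromosome III, 13231001 to 13232000, with 6.12 RPKM in N2 and 1.21 in set-32, against 6.99 in hrde-1 and 37.1 in set-32 hrde-1. The other 5 had log2 changes of 0.98 to 1.65 and were higher in both pairs.

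Among GRH bins the share called and the median change were smaller than among GRTS bins, a difference that was not tested. Of 214 tested GRH bins, 82 were higher (38.3%) and 0 lower, and of the 189 that are not also GRTS, 58 were higher (30.7%). The median GRH bin stood at 13.5 RPKM in N2 and 15.5 in set-32, against 26.8 in hrde-1 and 27.3 in set-32 hrde-1, a log2 difference of 0.86 with a spread within the arms of 0.10 (SD, n = 2 libraries per arm). The 132 GRH bins that were not called had more Pol II in the controls than the called ones: their medians were 17.1 RPKM in N2 and 20.4 in set-32, against 8.35 and 6.59 in the 82 called bins. In the mutants the uncalled bins stood at 23.6 and 22.8 RPKM. The calls rest on these same values, so lower controls among the called bins are partly built into the split. Bins marked misanotated (spelled as in the table) were called in 4 of 502 cases (0.797%), near the share of all bins.

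Most higher bins carried neither mark: 504 of 745 (67.7%), out of 83780 such bins tested, of which 0.602% were higher. Part of them adjoined GRTS bins. The 62 regions that hold a GRTS bin contained 414 higher bins, 183 marked GRTS and 231 not, with a median log2 change of 2.11 per region and a median length of 5 kb. The 128 regions with neither mark were shorter and weaker, with a median length of 2 kb over all regions lacking GRTS, 63 single-bin regions and a median log2 change of 1.38. Of these 128, 98 lay more than 20 kb from the nearest GRTS bin, 10 were on chromosome X, which has no GRTS bin, and 7 were within 5 kb. Some distant regions read nearly alike, so they are not all shown to be separate loci. II 479001 and II 3940001 read 7.22 and 7.27 RPKM in N2 and 24.7 and 24.75 in hrde-1. In set-32 they read 6.76 and 6.68, and in set-32 hrde-1 13.78 and 13.86. Only 0 and 50% of their values lay on whole reads. Regions of other chromosomes read much like this pair, among them I 11850001, I 13740001, II 7079001, III 8695001 and IV 13816001. These read 22.8 to 26.0 RPKM in hrde-1 and 12.9 to 14.1 in set-32 hrde-1, with 0 to 50% on whole reads. II 14688001, IV 702001 and IV 508001 were likewise close to one another, with 20, 20 and 25% on whole reads. How many of the 128 regions read alike was not counted. All of these examples were picked after their values were seen.

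The unmarked loci included some with large changes. Chromosome II, 10123001 to 10125000, read 2.37 RPKM in N2 and 1.16 in set-32, against 11.8 in hrde-1 and 37.1 in set-32 hrde-1 (log2 change 2.87 ± 0.37 SE; limma adjusted p = 1.93e-06). Both mutants exceeded both controls, and set-32 hrde-1 was the higher of them. Chromosome III, 5359001 to 5361000, read 3.95 RPKM in N2 and 5.47 in set-32, against 27.5 in hrde-1 and 27.3 in set-32 hrde-1, with close levels in the mutants (log2 change 2.39 ± 0.25 SE; limma adjusted p = 1.66e-06). Chromosome IV, 6086001 to 6088000, behaved in the same way at 3.38 RPKM in N2 and 4.53 in set-32, against 18.8 in hrde-1 and 21.6 in set-32 hrde-1. Chromosome IV, 1448001 to 1451000, read 6.02 RPKM in N2 and 4.77 in set-32, against 18.5 in hrde-1 and 51.9 in set-32 hrde-1. It lost its call when limma was run without an intensity trend. Chromosome IV, 12505001 to 12507000, read 2.23 RPKM in N2 and 1.07 in set-32, against 11.8 in hrde-1 and 6.11 in set-32 hrde-1, and adjoins a GRTS bin that was not called. It lost its call without the hrde-1 library or the intensity trend.

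Chromosome V held 271 higher bins (1.70% of its tested bins), chromosome IV 151 (1.04%), II 135 (1.01%), I 112 (0.805%), III 58 (0.453%) and X 18 (0.132%). On the autosomes the higher bins lay towards the ends: when every autosome was split into 3 equal stretches, the outer 2 held 585 of 727 higher bins (80.5%) and 66.1% of the tested bins. Chromosome III departed from this, with 11 higher bins in its left part and 19 in its middle part (0.257 and 0.446% of those tested). On chromosome V, 1.90 and 1.86% of the outer parts and 1.38% of the middle part, where the 22 kb pair lies, were higher. The strongest region of chromosome X with at least 3 called bins, 7345001 to 7351000, read 3.13 RPKM in N2 and 2.29 in set-32, against 8.41 in hrde-1 and 17.5 in set-32 hrde-1 (log2 change 1.83 ± 0.33 SE; limma adjusted p = 2.23e-04). It lost its call without the intensity trend. Neighbouring higher regions were usually far apart, with a median gap of 185.5 kb, although 47 of the 206 gaps were at most 20 kb.

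**Figure D3:**
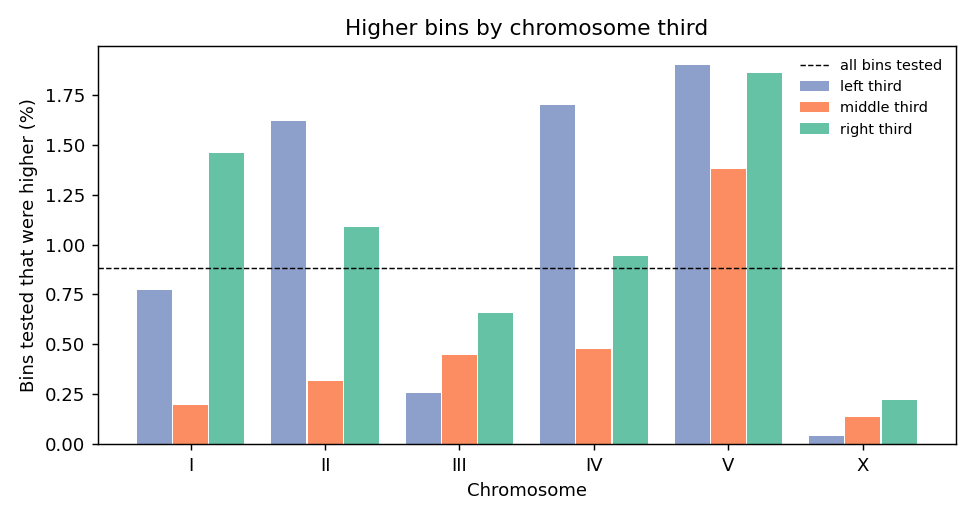
Share of tested bins that were higher with hrde-1 loss (%, y axis) in the left, middle and right part of equal length of each chromosome (x axis). Bars start at 0 and the dashed line is the share over all tested bins, 0.885%. On chromosomes I, II, IV and V both outer bars exceed the middle one, and the bars of X lie between 0.0426 and 0.223%.

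At the borders of the larger regions the difference between mutants and controls narrowed within a few kilobases. Over the 158 edges of the 79 regions with at least 3 called bins, the outermost called bin had a median of 6.20 RPKM in N2 and 5.42 in set-32, against 16.8 in hrde-1 and 22.96 in set-32 hrde-1, a log2 difference of 1.54. The bin 1 kb outside had medians of 5.36 and 4.03 RPKM in the controls and 7.77 and 9.17 RPKM in the mutants, in the same order, a difference of 0.74. At 2 kb it was 0.40, at 5 kb 0.20 and at 10 kb 0.08. N2 changed little across the border, from 6.20 RPKM inside to 5.36 RPKM outside. A drop at the first outside bin is built into the choice of the edge, so only the values farther out describe the flanks.

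**Figure D4:**
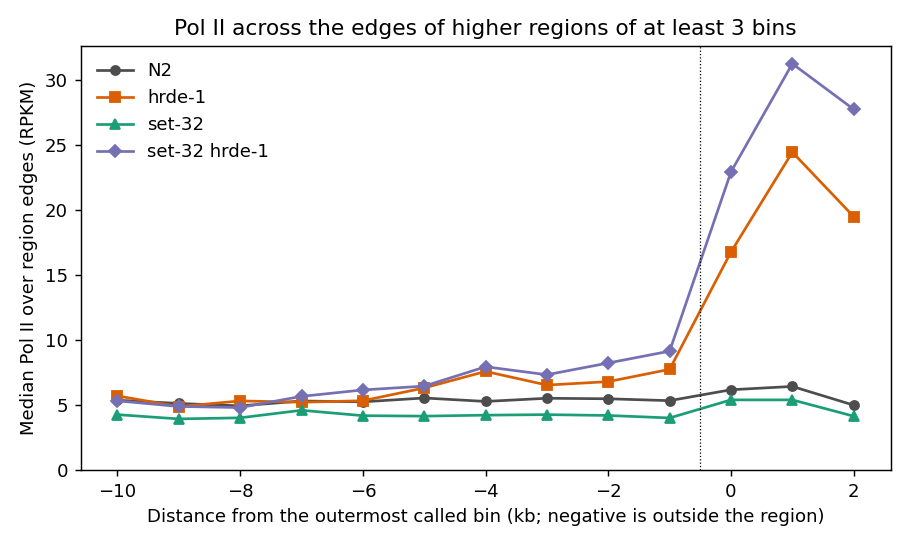
Median Pol II (RPKM, y axis) in each library by distance from the outermost called bin of a region (kb, x axis, negative outside), over 158 edges of 79 regions, 96 edges at the innermost distance. The mutant lines fall from 16.8 and 22.96 RPKM at the edge to 5.72 and 5.34 RPKM at 10 kb outside, while N2 and set-32 stay between 3.95 and 6.45 RPKM.

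The mutants differed from each other at some loci. Of the higher bins, 531 (71.3%) changed more in the pair lacking set-32, against 54.7% of all tested bins, and the median change was 1.60 with set-32 intact and 2.10 with it lost. The control of that pair is the set-32 library, which stood apart in its spread. The bins were also chosen on both pairs together. What either adds to this share was not tested. Among regions of at least 3 called bins the widest difference was at chromosome IV, 913001 to 922000, which read 4.29 RPKM in N2 and 3.51 in set-32, against 14.1 in hrde-1 and 110.1 in set-32 hrde-1. Its change was 1.51 in the first pair and 4.68 in the second. Chromosome III, 13229001 to 13243000, read 4.38 RPKM in N2 and 3.21 in set-32, against 14.1 in hrde-1 and 64.3 in set-32 hrde-1. Chromosome III, 6644001 to 6649000, read 7.04 and 5.95 RPKM in the controls and 25.7 and 78.2 in the mutants, in the same order, and chromosome V, 18121001 to 18125000, read 6.69 and 5.31 against 16.1 and 48.7 RPKM. At these loci the hrde-1 library lay above both controls but well below set-32 hrde-1. Without the intensity trend IV 913001 and V 18121001 lost their call. Among regions of at least 3 called bins the reverse order was milder. Chromosome II, 9379001 to 9382000, read 8.14 RPKM in N2 and 8.96 in set-32, against 28.8 in hrde-1 and 18.4 in set-32 hrde-1, and chromosome II, 12282001 to 12285000, read 18.96 and 28.99 against 64.9 and 57.0 RPKM. Both lost their call without the intensity trend and without the hrde-1 library, and II 9379001 also without N2. Single bins outside the rule for named regions, picked after their values were seen, can differ more: IV 2647001 to 2648000 read 19.1 RPKM in N2 and 68.4 in set-32, against 117.1 in hrde-1 and 95.8 in set-32 hrde-1, a change of 2.56 in the first pair and 0.48 in the second. None of its values lay on whole reads.

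Since 4 libraries cannot test this difference, it was tested over all 8 Pol II libraries as a product term of hrde-1 and set-32 loss. The term averages over the backgrounds with met-2 and set-25 intact and mutant, so it does not describe the 4 libraries alone. This test was chosen once the data had been seen. The term was positive in 133 of 100027 bins (0.133%) and negative in 21 (0.021%) (limma, Benjamini-Hochberg adjusted). Of the 745 higher bins, 12 were among the positive (1.61%) and 7 among the negative ones. The 12 lay in 4 regions: IV 913001 with 5 bins, III 13229001 and V 5180001 with 3 each, and V 18121001 with 1. These 12 calls fell to 4 without N2, 3 without set-32 and 1 without set-32 hrde-1, and rose to 66 without the set-32 met-2 set-25 triple mutant and 23 without that mutant's hrde-1 counterpart. They numbered 1 when libraries were centred and 0 after quantile normalization.

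The same bins were read in 4 libraries that were not used to choose them: mutants for met-2(n4256) and set-25(n5021), the same with set-32(red11), and each of these with hrde-1(tm1200) added. Over the 745 bins the median was 6.45 RPKM without and 22.4 RPKM with the hrde-1 mutation where set-32 was intact, and 8.52 and 20.1 RPKM where it was lost. The hrde-1 mutants were thus the higher libraries here too. In the second of these pairs the mutant was the shallower library, at 3.07 M against 6.06 M reads, unlike in the pairs with MET-2 and SET-25 intact. That pair also crosses name prefixes, with SG1115 for the control and SG0117 for the mutant. The ratio between the 90th and 10th percentiles was 7.63 and 12.2 without and with the hrde-1 mutation where set-32 was intact. Where set-32 was lost it was only 3.72 and 4.31, against 12.01 to 24.96 with MET-2 and SET-25 intact. What this narrower range does to the size of the changes was not tested. Of the 745 bins, 735 had a positive change against 41.4% of all tested bins, with a median of 1.25 against -0.08. In these libraries 687 of 100238 bins were higher with hrde-1 loss (0.685%) and 382 were lower (0.381%) (limma, Benjamini-Hochberg adjusted, a fit added after the data were seen). Bins called higher in both sets of libraries numbered 464, which is 62.3% of the 745 and 67.5% of the 687. Read the other way, the 687 bins had a median change of 1.67 with MET-2 and SET-25 intact and 1.49 in the libraries that chose them.

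Of the 212 regions, 134 had a bin called in the met-2 set-25 mutants, among them 58 of the 62 with a GRTS bin and 61 of the 128 with neither mark. Chromosome IV, 2902001 to 2915000, was chosen for mention after its values were seen, as the longest region without a called bin there: with MET-2 and SET-25 intact it read 11.6 RPKM in N2 and 10.3 in set-32, against 36.9 in hrde-1 and 42.6 in set-32 hrde-1 over 13 bins without GRTS or GRH marks. In the met-2 set-25 mutants it read 16.6 RPKM without and 32.2 with the hrde-1 mutation where set-32 was intact, and 19.6 and 22.8 where it was lost, higher in both pairs but not past the threshold (log2 change 0.59, limma adjusted p = 0.233). A bin past the threshold in 1 set of libraries and not in the other is not thereby shown to differ, so the difference itself was tested over the 8 libraries. A product term of hrde-1 and met-2 set-25 loss was called in 1 of 100027 bins (0.001%) in either direction (limma, Benjamini-Hochberg adjusted), with 2429 bins at an unadjusted p under 0.05. This count depends on the fit: it was 61 positive and 183 negative with all 3 pairwise product terms, 3 and 43 with the name prefix as a term, and 4 to 65 and 30 to 275 with 1 library left out. The single call therefore does not show that the backgrounds respond alike.

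That bin was chromosome IV, 2755001 to 2756000, at 12.3 RPKM in N2 and 31.6 in set-32, against 40.1 in hrde-1 and 53.9 in set-32 hrde-1. Among the met-2 set-25 mutants it read 48.2 RPKM without and 4.2 with the hrde-1 mutation, and 47.1 and 21.2 where set-32 was lost as well. It rose with hrde-1 loss in the first 4 libraries and fell in the others (product term -3.37 ± 0.48 SE, limma adjusted p = 0.00654). None of its values fell on whole reads, and a bin of chromosome I, 14686001 to 14687000, had nearly parallel values (product term -2.75, limma adjusted p = 0.0515), so where its reads belong is uncertain. The next bins by p on that side, IV 527001 and II 13248001, both GRTS, read higher in each hrde-1 mutant than in its control (product terms -2.45 and -2.29, limma adjusted p = 0.0571 and 0.0629). On the positive side the 4 bins with the smallest p, I 14369001, II 11890001, V 20504001 and I 13854001, had adjusted p of 0.142 to 0.256 by limma. Over the 745 bins the median product term was -0.60, and 649 were negative, against -0.11 and 59.4% for all bins. The 745 were chosen for a large change in the first set, and the libraries lacking set-32, met-2 and set-25 have a narrower range of values. That shift is therefore a description only.

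**Figure D5:**
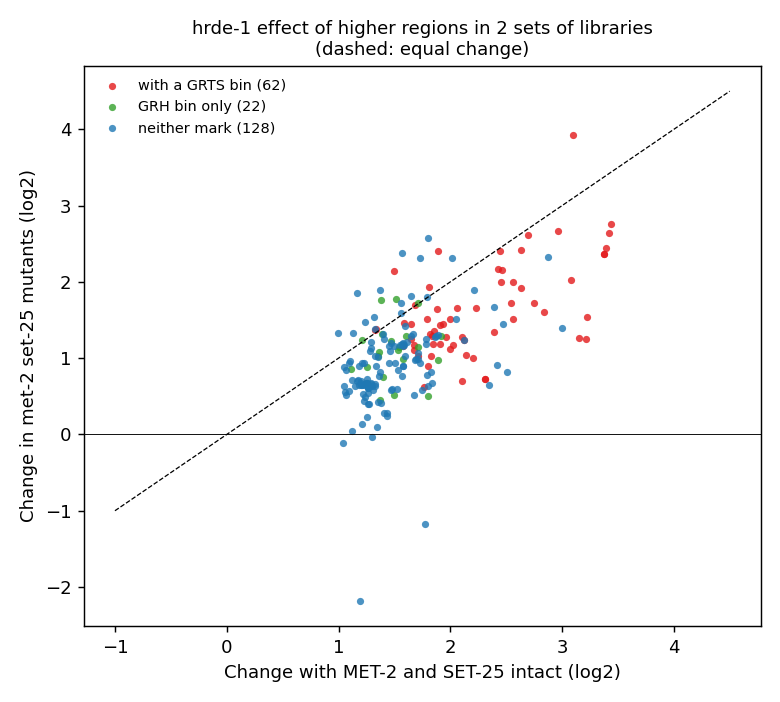
Log2 change with hrde-1 loss of each of the 212 higher regions in the 4 libraries with MET-2 and SET-25 intact (x axis, the libraries that chose the regions) and in the 4 met-2 set-25 mutant libraries (y axis). Points are regions, coloured by mark, and the dashed line is equal change. Regions with a GRTS bin extend to the upper right, and the lowest point is the bin at IV 2755001, with -2.18 on the y axis.

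Lower Pol II was rare and less stable. The 21 lower bins had medians of 35.4 RPKM in N2 and 24.7 in set-32, against 9.27 in hrde-1 and 14.5 in set-32 hrde-1. N2 was the highest library in 13 of them. In 20 of the 21 both mutants lay below both controls, an order that 16.8% of all tested bins showed and that the call largely builds in. They formed 18 regions, of which 16 were single bins, and 11 of the bins were on X, 4 on III, 3 on V, 2 on IV and 1 on II. Chromosome X, 150001 to 154000, read 34.1 RPKM in N2 and 36.9 in set-32, against 5.96 in hrde-1 and 23.4 in set-32 hrde-1. Nearby, X 156001 to 157000 read 25.3 and 33.1 RPKM in the controls and 6.0 and 21.8 RPKM in the mutants, in the same order, so in both the hrde-1 library was far lower than set-32 hrde-1. Their log2 changes were -1.49 ± 0.31 and -1.24 ± 0.28 (SE; limma adjusted p = 0.00883 and 0.0357), and both regions were also lower in the met-2 set-25 mutants, at -1.87 and -1.57. Only 50 and 0% of their values up to 60 RPKM lay on whole reads, against 81.3% over all tested bins. Where those reads belong is thus uncertain.

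At 3 other lower bins N2 stood apart. Chromosome III, 5092001 to 5093000, read 65.4 RPKM in N2 and 15.5 in set-32, against 7.69 in hrde-1 and 9.65 in set-32 hrde-1, and chromosome III, 1823001 to 1824000, read 22.4 and 5.93 against 3.15 and 3.30 RPKM. Chromosome V, 3634001 to 3635000, read 112.7 RPKM in N2 and 16.3, 12.9 and 9.41 in hrde-1, set-32 and set-32 hrde-1. In all 3 bins set-32 was nearer to the mutants than to N2, and at V 3634001 the hrde-1 library exceeded it. Chromosome IV, 15900001 to 15901000, read 51.6 and 24.7 RPKM in N2 and set-32 and 9.27 and 16.3 in the mutants. In the same order X 3731001 to 3732000 read 14.9 and 9.55 against 4.2 and 4.46, and V 1746001 to 1747000 read 8.64 and 6.59 against 4.37 and 0. Of the 8 lower regions named here, 0 kept their call in every alternative, and all 8 lost it without N2, but their log2 changes then differed. Without N2 it was -0.78 at III 5092001, -0.71 at III 1823001 and -0.05 at V 3634001, against -1.78, -1.59 and -1.57 with all 4 libraries. At X 150001, X 156001 and V 1746001 it stayed at -1.54, -1.43 and -1.71 without N2. The X pair came to -0.57 and -0.39 without hrde-1, and V 1746001 to -0.67 without set-32 hrde-1, which reads 0 there. Over all bins, 30 were lower without N2, of which 5 were among the 21.

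Of the 16097 bins left out for a mean below 2 RPKM, 0 passed in either direction by limma when no filter was set. The higher bin with the lowest mean, V 18708001 to 18709000 at 3.56 RPKM, read 0.54 in N2 and 1.65 in set-32, against 5.77 in hrde-1 and 6.27 in set-32 hrde-1.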

How the data were processed

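The authors deposited a table of RPKM values, unlogged, in 1 kb bins with 43 library columns, of which 8 were matched by name to the Pol II samples and 35 were not used. The 3 H3K9me3 samples were not analysed here. Per the submitters' processing notes the aligner was Bowtie 0.12.7. Build, duplicate handling and multi-match handling: not given in the sources used here. Because many values were fractions of a read, no count model was used. Each bin was tested on log2(RPKM + 1) with limma 3.58.1 in R 4.3.3 (moderated with an intensity trend, hrde-1 and set-32 status as terms, 1 residual degree of freedom, two-sided, Benjamini-Hochberg adjusted). The differences between backgrounds were product terms over 8 libraries. A depth estimate came from the smallest step between low values. Everything else used pandas 2.3.3, numpy 2.4.6 and matplotlib 3.10.9 in Python 3.11.15, and the code was tested on simulated data. The members and lists were chosen with earlier results of these data known.

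Regions named in the text follow a rule: the 12 regions of at least 3 called bins with the largest change, the 3 longest, the 6 largest of at least 2 bins without marks, 4 of at least 3 bins whose pairs differ most (2 with the larger change in each pair), the strongest per chromosome, the 8 largest falls, and the 4 bins with the smallest product-term p in each direction. Others were chosen after their values were seen, or by the rule stated where they are named. The alternatives were other pseudocounts (0.5 and 2 RPKM), filters, scalings, terms and each library left out. The 4-library fits with 1 left out have hrde-1 status as their sole term. Wherever prefix was a term it set SG0117 against the rest, so SG0615 and SG1115 were not told apart.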

Additional observations from a re-analysis of the deposited data

Results flagged for a closer look

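The change with hrde-1 loss differed between genetic backgrounds by a product term over the 8 Pol II libraries (limma, Benjamini-Hochberg adjusted p under 0.05) in 1 bin for met-2 set-25, and in 133 positive and 21 negative bins for set-32. Given here are the met-2 set-25 bin and, for each named region with a set-32 call, its bin with the smallest p. The terms are on the log2 scale. For the met-2 set-25 background it was IV 2755001, at -3.37, with the values given in the report. For the set-32 background, 12 higher bins in 4 regions rose more with set-32 lost, shown by 1 bin per region. V 18121001 had a term of 3.05, with 2.97 RPKM in N2 and 2.31 in set-32, against 4.55 in hrde-1 and 70.5 in set-32 hrde-1. III 13238001 had 2.30, with 4.68 and 1.70 against 11.8 and 65.6 RPKM in the same order. V 5198001 had 2.23, with 6.48 and 2.31 against 23.95 and 94.6 RPKM, and IV 916001 had 2.15, with 2.97 and 2.31 against 11.9 and 131.7 RPKM. In each of these 4 bins set-32 hrde-1 was the highest of the 4 libraries. The term averages over both met-2 set-25 backgrounds. In the met-2 set-25 mutants the hrde-1 library lacking set-32 was again the higher of the hrde-1 libraries in all 4 bins. The fold between them was smaller there. At IV 916001 they read 107.4 RPKM with set-32 intact and 216.3 with it lost.

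Of the 7 higher bins that rose less with set-32 lost, 2 are the bins of named regions. II 12283001 had a term of -1.98, with 17.5 RPKM in N2 and 28.6 in set-32, against 68.7 in hrde-1 and 52.1 in set-32 hrde-1. In the met-2 set-25 mutants it read 8.13 RPKM without and 95.4 with the hrde-1 mutation, and 15.96 and 23.2 where set-32 was lost. IV 528001 had -1.86, with 3.26 and 7.84 against 96.1 and 87.6 RPKM. In the met-2 set-25 mutants it read 5.54 RPKM without and 110.9 with the hrde-1 mutation, and 8.19 and 26.3 where set-32 was lost. In both bins the gap between hrde-1 libraries by set-32 status was wider in the met-2 set-25 mutants. The lower bin V 3634001 had 2.35. Among the libraries with MET-2 and SET-25 intact N2 alone was high, at 112.7 RPKM against 16.3, 12.9 and 9.41. In the met-2 set-25 mutants the bin read 29.6 RPKM without and 16.7 with the hrde-1 mutation, and 16.5 and 51.9 where set-32 was lost. The term thus draws on both backgrounds. No cause of these differences was tested.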

How the results depend on the processing

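The count of higher bins (745) kept within 1.5 times under other pseudocounts, filters, scalings and terms, at 519 to 920, and was 210 without the intensity trend. Leaving out 1 library gave 476 to 1285, the highest without set-32. The lower count (21) was 36 with a pseudocount of 0.5 RPKM, 2 for bins with means from 5 RPKM, 83 with libraries centred, 7 after quantile normalization, 1 without the set-32 term, 1 over 8 libraries, 9 with prefix as a term and 0 without the trend, and 16 to 1015 with 1 library left out. Leaving out the set-32 term, which pairs the libraries, gave 519 higher bins, all among the 745. The met-2 set-25 product term (0 positive, 1 negative) gave 0 and 2 with a pseudocount of 2 RPKM, 0 and 0 for means from 5 RPKM, after quantile normalization and without the trend, 0 and 3 with libraries centred, 61 and 183 with all product terms, and 3 and 43 with prefix as a term. With 1 library left out it gave 4 to 65 and 30 to 275. Higher bins with a positive set-32 product term (12) numbered 6 and 21 with pseudocounts of 0.5 and 2 RPKM, 0 for means from 5 RPKM, 1 with libraries centred, 0 after quantile normalization and 1 to 66 with 1 library left out. The share of signal in higher bins, 2.19 points more in mutants (SD 0.43, n = 2), was 1.45 to 3.73 with 1 library left out. Each of those values covers the bins called in its own fit, so the set of bins changes along with the library. The median GRTS difference lay between 2.61 and 3.39 and the median GRH difference between 0.76 and 0.96 over all alternatives. Of 24 named higher regions, 17 kept their call in all 14 alternatives. The causes of these changes were not tested. Every genotype has 1 library, and at 10 RPKM counting error alone is 12.9 to 18.2%. No paired analysis by replicate number was possible because each genotype has 1 library, so only set-32 status pairs them.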

Other observations

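Chromosome X, which has no bin with the GRTS mark, held 10 higher regions of generally low Pol II. Beside the one described in the report, X 17117001 to 17124000 had 5 called bins, at 3.16 RPKM in N2 and 3.56 in set-32, against 8.75 in hrde-1 and 20.9 in set-32 hrde-1. X 17711001 to 17712000 was the most occupied of them, at 16.6 and 21.8 RPKM in the controls and 29.4 and 59.4 in the mutants, in the same order. In each of these regions both mutants lay above both controls. All of these loci were picked after their values were seen.

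A single unmarked bin, IV 6794001 to 6795000, read 2.16 RPKM in N2 and 0.33 in set-32, against 6.12 in hrde-1 and 5.94 in set-32 hrde-1. Among the met-2 set-25 mutants it went the other way, from 14.98 to 3.64 RPKM with set-32 intact and from 11.1 to 7.18 RPKM with set-32 lost. The product term was -2.95 and did not pass (limma adjusted p = 0.142). All of its values lay on whole reads. This bin was picked after its values were seen.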
